A study of Rattus norvegicus with 9 samples.

Results

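Alternating current stimulation (ACS) was compared with direct current stimulation (DCS) in primary cortical neurons taken from wild-type Wistar rat embryos at embryonic day 16 to 18. The comparison used every library labelled ACS and every library labelled DES, the name the labels give to DCS, which is 6 of the 9 libraries of the study. The other 3 libraries came from unstimulated control neurons and entered the fit to estimate the spread between replicates. All neurons grew on glass coated with conductive indium tin oxide (ITO), and the stimulated groups shared the current (3 µA), the daily session (20 min) and the duration (7 days). A frequency of 20 Hz stands in the labels of either stimulated group, whereas the methods give one for ACS only. The stated age is day 7 in vitro, although the growth protocol extends to day 14. Whether the replicates of a group are separate cultures is not stated, so p-values cover only the spread between these samples, which may be technical. The paper delivered DCS with a programmable stimulator and ACS with a function generator, as a square wave. Device and waveform therefore cannot be told apart from the type of current. The question was which transcripts differ between ACS and DCS as delivered in this way.

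Depolarized neurons transcribe a set of immediate early genes within minutes, without new protein synthesis, through transcription factors such as CREB and serum response factor that calcium and MAP kinase signaling activate. Many of these genes encode transcription factors themselves (the Fos, Jun, Egr and Nr4a families and Npas4), and others encode phosphatases that switch the signaling off again. Their mRNAs decay quickly, so their level follows recent activity, and later effector genes for growth, synapses and secreted peptides are transcribed after them.

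Of the 32623 entries of the deposited table, 16284 passed a filter on low counts and were tested. The libraries held 49039412 to 52938628 estimated counts with ACS, 52370330 to 68133858 with DCS and 53910745 to 68690760 in controls, and about 4 of these counts stand for 1 sequenced fragment. Levels are given as CPM, counts in each 1000000 counts of the library, after scaling by the TMM method, and differences as log2 fold changes (ACS minus DCS) with their standard error (SE). Markers of the labelled cell type were present throughout: all 14 markers of excitatory cortical neurons were tested, and their summed level was 1820 to 1892 CPM with ACS, 1700 to 1839 CPM with DCS and 1742 to 1775 CPM in controls. Glia were also present, with summed levels of 813 to 1139 CPM for the astrocyte markers and 206 to 220 CPM for the microglial markers over the 9 libraries. In such bulk RNA, fewer cells of a type and less RNA per cell cannot be told apart.

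ACS raised a small set of transcripts over DCS and lowered a smaller one. At a Benjamini-Hochberg adjusted p under 0.05 in edgeR's quasi-likelihood test, 83 entries were higher with ACS (0.51% of those tested) and 20 were lower (0.123%). The 3 ACS libraries lay entirely above or below the 3 DCS libraries in all 103, against 3477 of all tested entries (21.4%). The calls were made on these same values, so the separation of called entries adds no support to them. At an unadjusted p under 0.05 there were 2260 entries (13.9%). Most differences were small: 54 of the 103 were under 0.5 on the log2 scale, 11 were over 1, and the median was 0.51 for the higher entries and −0.41 for the lower ones, against −0.0021 for all tested entries. The number of calls depended on single libraries, from 27 without DCS replicate 2 and 28 without ACS replicate 1 to 184 without control replicate 3, and DESeq2 called 650. Of the 103, the fits without ACS replicate 1, 2 or 3 lost 77, 69 and 68, those without DCS replicate 1, 2 or 3 lost 47, 78 and 47, and those without control replicate 1, 2 or 3 lost 48, 57 and 3. Called in all 9 fits that left out 1 library were 24 entries, of which 19 were higher and 5 lower.

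**Figure D1:**
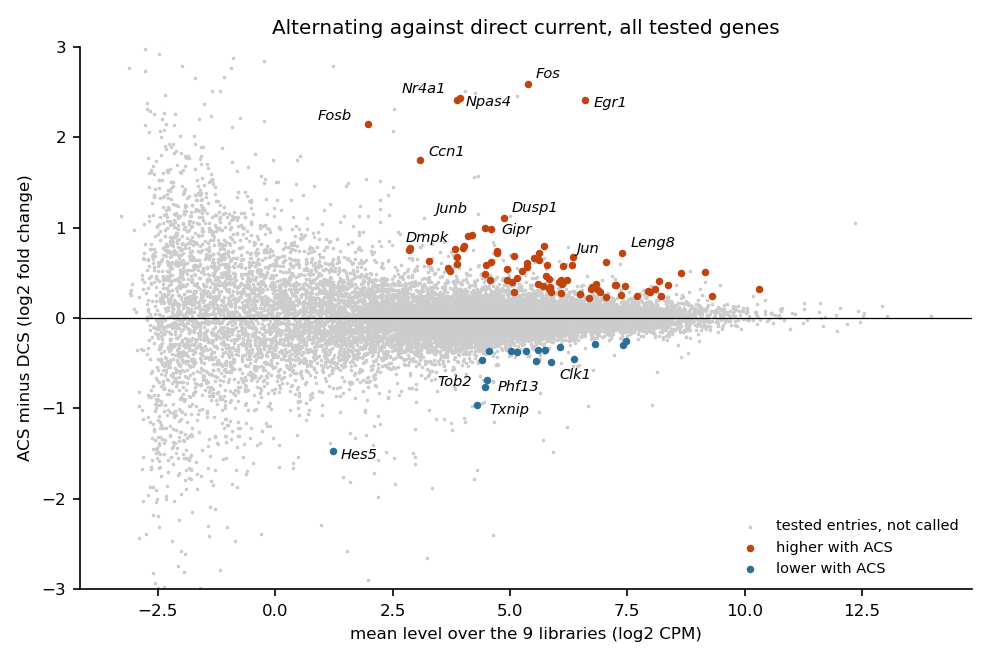
Log2 fold change of ACS over DCS (vertical axis) against the mean level over the 9 libraries in log2 CPM (horizontal axis) for all tested entries. Each point is 1 entry; orange points are higher with ACS and blue points lower at an adjusted p under 0.05. The 3 called entries that were 0 in every library of a group are not drawn, and 51 entries that were not called lie outside the axis of −3 to 3. Fos, Nr4a1, Npas4, Egr1 and Fosb are the highest called points drawn, at log2 fold changes of 2.15 to 2.59.

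Among entries with counts in both groups, the largest increases that passed the test were in immediate early transcription factors. Fos, the partner of Jun proteins in the AP-1 transcription factor, was at 95.6, 79.3 and 103 CPM in the ACS libraries, 12.6, 13.3 and 20.2 CPM in the DCS libraries and 15.2, 14.1 and 20.6 CPM in controls. Its level was thus 6.02-fold higher with ACS than with DCS (log2 fold change 2.59, SE 0.20, edgeR adjusted p = 0.000822), and the lowest ACS library lay far above the highest DCS library. Egr1, a zinc finger factor induced by synaptic activity, was at 207, 184 and 231 CPM with ACS, 33.1, 37.1 and 46.9 CPM with DCS and 35.7, 49.1 and 52.8 CPM in controls. That is a 5.31-fold difference (log2 fold change 2.41, SE 0.17, edgeR adjusted p = 0.00034), again without overlap, while the DCS and control libraries overlapped. The orphan nuclear receptor Nr4a1 was at 34.3, 26.8 and 41.2 CPM with ACS against 5.02, 5.88 and 7.92 CPM with DCS and 3.46, 5.59 and 7.4 CPM in controls. Its difference between the currents was 2.44 (SE 0.28, edgeR adjusted p = 0.00551). Npas4, a factor that neurons induce in response to calcium entry, was at 36.7, 23.4 and 37.2 CPM with ACS, 4.98, 4.51 and 8.71 CPM with DCS and 5.01, 4.25 and 7.75 CPM in controls, a log2 fold change of 2.41 (SE 0.31, edgeR adjusted p = 0.00971). For each of these genes, the DCS libraries covered much the same range as the control libraries.

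Fosb, a Fos relative with a longer-lived splice form, was at 7.51, 7.23 and 9.68 CPM with ACS and 0.977, 1.25 and 3.25 CPM with DCS, with controls at 1.89, 1.52 and 2.02 CPM. Its log2 fold change of 2.15 (SE 0.40) lay just under the threshold (edgeR adjusted p = 0.04997), with DCS replicate 3 the highest of the DCS libraries. Ccn1, a secreted matrix protein that is an early response gene in many cells, was at 14.2, 15 and 19.3 CPM with ACS, 3.43, 4.72 and 6.28 CPM with DCS and 3.31, 4.33 and 5.71 CPM in controls (log2 fold change 1.75, SE 0.26, edgeR adjusted p = 0.0198). The Jun partners rose less than Fos. Junb was at 33.5, 30.5 and 38 CPM with ACS and 15.8, 16.4 and 18.8 CPM with DCS (log2 fold change 1.00, SE 0.10, edgeR adjusted p = 0.00393). Jun was at 176, 161 and 177 CPM with ACS and 106, 108 and 119 CPM with DCS (0.63, SE 0.07, edgeR adjusted p = 0.00456). Neither had overlapping groups. Ier2, a short early response gene that the table annotates as a pseudogene, was at 27.4, 26.1 and 29.4 CPM with ACS and 13.3, 13.9 and 16.7 CPM with DCS (0.92, SE 0.12, edgeR adjusted p = 0.0108). Nr4a2, a second member of the Nr4a family, was higher by 0.61 (SE 0.09, edgeR adjusted p = 0.0208), and Nfil3, a repressor of the bZIP class, by 0.36 (SE 0.06, edgeR adjusted p = 0.0357).

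**Figure D2:**
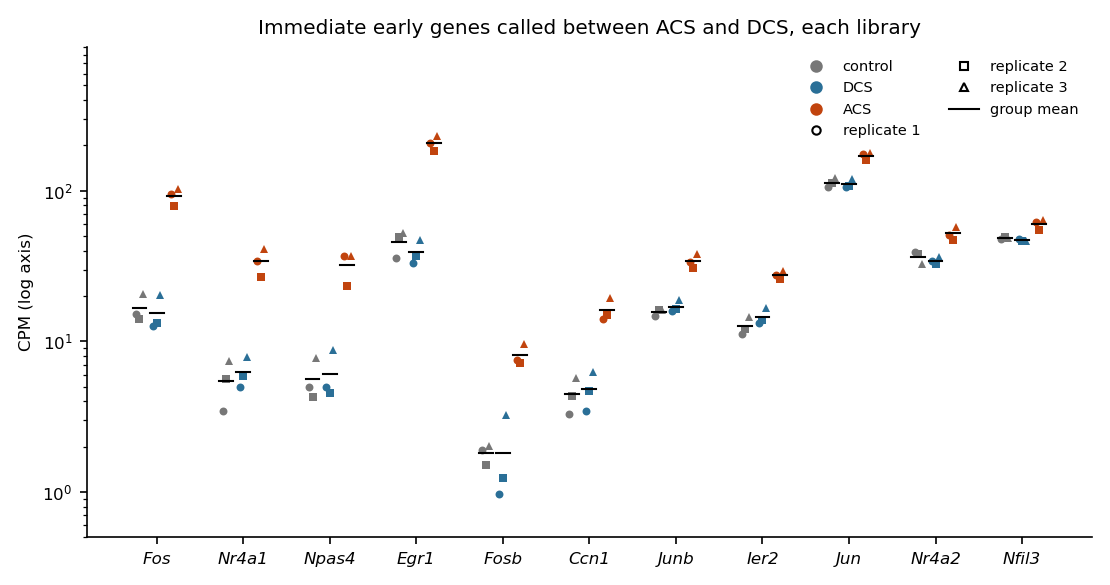
Level in CPM (vertical log axis) of the 11 immediate early genes called between ACS and DCS, in each of the 9 libraries. Grey, blue and orange mark control, DCS and ACS, the symbol shape marks the replicate number and the black line the group mean. The ACS libraries lie above all DCS libraries for every gene shown, and the DCS and control libraries lie close together.

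The list of immediate early genes held 41 genes, all tested: 11 were higher and none lower (at an unadjusted p under 0.05, 23 higher and 2 lower, and DESeq2 called 20 higher and 1 lower). Their median log2 fold change was 0.42, and 32 of the 41 were above 0. Over all tested entries, 0.51% were higher and 0.123% lower. The list was chosen with earlier results of these data known. The count of higher genes was 5 without ACS replicate 1, 6 without ACS replicate 3, 5 without DCS replicate 2, 7 without DCS replicate 1 and 13 without control replicate 3. Fos, Egr1, Nr4a1, Junb and Jun were called whichever library was left out. Npas4 reached an adjusted p of 0.0563 in the least favorable of these fits, Ier2 0.0711, Ccn1 0.111, Nr4a2 0.115, Nfil3 0.152 and Fosb 0.176. Relative to the control mean, the median log2 level of the 11 called genes was 1.70, 1.78 and 2.15 in the ACS libraries and −0.10, −0.06 and 0.30 in the DCS libraries. Replicate 3 was the highest of its group in all 3 groups, with 0.22 in the control group against −0.11 and 0.0014 for the other two, and whether these libraries share a culture or a run was not tested.

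Several early genes with large differences did not pass the adjusted test. Egr2, a relative of Egr1, was at 7.99, 6.63 and 7.21 CPM with ACS and 2.62, 1.59 and 3.29 CPM with DCS (log2 fold change 1.54, SE 0.30, edgeR adjusted p = 0.0567). Arc, which encodes a cytoskeletal protein that acts at active synapses, was at 6.1, 5.04 and 5.07 CPM with ACS and 2.49, 1.73 and 3.16 CPM with DCS (1.13, SE 0.28, edgeR adjusted p = 0.104). The groups of both genes did not overlap. Mafk, a small bZIP factor, gave −0.43 (edgeR adjusted p = 0.0538) with ACS libraries at 10.1 to 11.1 CPM and DCS libraries at 14 to 14.4 CPM. Ptgs2 had the lowest log2 fold change of the list, −1.04, without passing the test.

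Of the 11 called early genes, 9 had a promoter in the RefSeq table (build GRCr8), and Fos and Jun had no entry. The 250 bases before each start were searched on both strands for 4 motifs: the cyclic AMP response element that CREB binds (CRE, TGACGTCA), the AP-1 site (TGACTCA), the Egr site (GCGTGGGCG) and the CArG box of serum response factor. None of the motifs overlapped another in these promoters. The CRE was present in 1 of the 9 promoters (Ier2) and the CArG box in 1 (Egr1), and the AP-1 and Egr sites were in none. Among all 33469 promoters of that table, 1.59% held the CRE, 4.05% the AP-1 site, 0.478% the Egr site and 1.5% the CArG box. The sequences are shown for Egr1 and Ier2, the promoters with a match, and for Nr4a1, the gene with the largest fold change among those with a promoter, which held no match. Capitals mark the motifs: 2 CArG boxes of Egr1 that begin 105 and 83 bases before the start, and the CRE of Ier2 that begins 66 bases before it. The stretches are chr18:26736828-26737077 on the plus strand, chr19:40399123-40399372 on the plus strand and chr7:134259888-134260137 on the plus strand, in the order shown. A match describes these letters only and says nothing of binding in these cells. Shorter or variant forms of the motifs were not counted, so a promoter without a match may still hold them.
Egr1: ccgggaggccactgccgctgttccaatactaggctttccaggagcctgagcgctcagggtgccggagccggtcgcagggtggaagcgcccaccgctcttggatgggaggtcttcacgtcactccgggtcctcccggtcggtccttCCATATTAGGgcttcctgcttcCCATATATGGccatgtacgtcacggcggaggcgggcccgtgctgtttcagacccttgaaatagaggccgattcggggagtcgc
Ier2: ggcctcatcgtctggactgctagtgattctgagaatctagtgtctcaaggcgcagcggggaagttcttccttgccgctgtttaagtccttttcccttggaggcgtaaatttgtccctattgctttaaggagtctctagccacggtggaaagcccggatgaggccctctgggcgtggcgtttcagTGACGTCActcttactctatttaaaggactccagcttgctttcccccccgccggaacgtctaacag
Nr4a1: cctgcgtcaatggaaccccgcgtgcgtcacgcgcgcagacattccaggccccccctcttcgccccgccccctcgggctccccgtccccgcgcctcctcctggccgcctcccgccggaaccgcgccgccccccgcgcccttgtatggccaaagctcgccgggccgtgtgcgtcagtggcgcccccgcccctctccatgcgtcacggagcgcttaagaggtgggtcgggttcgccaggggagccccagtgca

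The MAP kinase feedback genes included 2 of 20 that were higher and none that was lower, with a median log2 fold change of 0.0013. The shares over all tested entries were 0.51% and 0.123%. With an unadjusted p under 0.05, 5 members were higher and 2 lower, against 1175 and 1085 of all 16284 entries. Dusp1, a nuclear phosphatase that inactivates p38, JNK and ERK kinases, was at 44.3, 41.8 and 46.8 CPM with ACS, 17.9, 19.4 and 24.4 CPM with DCS and 25.9, 19.3 and 22.2 CPM in controls (log2 fold change 1.11, SE 0.13, edgeR adjusted p = 0.00566). Dusp6, a cytoplasmic phosphatase specific for ERK, was at 45.1, 41.8 and 50 CPM with ACS and 27, 26.6 and 31.8 CPM with DCS (0.68, SE 0.09, edgeR adjusted p = 0.0105). Both pairs of groups were separate, and Dusp6 lost its call without ACS replicate 1 or DCS replicate 2 (adjusted p up to 0.0659). Members that did not pass the test lay on both sides of 0: Dusp10 gave 0.52 and Spry1 0.40, whereas Dusp7 gave −0.19 and Errfi1 −0.20, with edgeR adjusted p-values of 0.133, 0.162, 0.154 and 0.16.

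The 28 tested late activity-induced effectors contained no call in either direction (at an unadjusted p under 0.05, 2 above and 4 below, and any alternative called at most 1 in each direction). Their median log2 fold change was −0.09, with 22 of 28 below 0. Vgf, a secreted neuropeptide precursor, was at 14.6, 16.5 and 16.7 CPM with ACS and 21, 25.2 and 28.7 CPM with DCS, a log2 fold change of −0.65 (SE 0.15, edgeR adjusted p = 0.0832). Bdnf, the brain-derived neurotrophic factor, was at 2.26, 2.66 and 4.4 CPM with ACS and 2.38, 3.32 and 4.81 CPM with DCS, so the groups overlapped (−0.17, SE 0.30, edgeR adjusted p = 0.854).

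Further higher genes belong to a list of splicing factors and nuclear speckle genes, which was chosen with earlier results of these data known. Of its 60 tested members, 10 were higher with ACS and 1 was lower, against 0.51% and 0.123% of all tested entries. The median log2 fold change was 0.05 over the whole list, and these counts are a description only. Leng8, a nuclear protein with a domain found in mRNA export complexes, was at 245, 243 and 231 CPM with ACS, 158, 144 and 134 CPM with DCS and 114, 119 and 128 CPM in controls (log2 fold change 0.72, SE 0.06, edgeR adjusted p = 0.00149). Srrm2, a scaffold of nuclear speckles, was at 1445, 1420 and 1456 CPM with ACS and 1190, 1123 and 1146 CPM with DCS (0.32, SE 0.03, edgeR adjusted p = 0.00453). The 3 groups of Leng8 were separate from each other, while the DCS and control libraries of Srrm2 were close, with controls at 1164 to 1188 CPM. Rbm24, an RNA-binding regulator of alternative splicing, was at 20.9, 19.6 and 19.4 CPM with ACS and 12.6, 11.4 and 11.2 CPM with DCS (0.77, SE 0.09, edgeR adjusted p = 0.00551). Akap8l, a nuclear anchoring protein, was higher by 0.52 (SE 0.06, edgeR adjusted p = 0.00556). Snrnp70, the 70K protein of the U1 particle, was at 413, 401 and 386 CPM with ACS and 322, 317 and 293 CPM with DCS (0.37, SE 0.05, edgeR adjusted p = 0.012).

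The remaining higher members were Clasrp (0.57), Srsf5 (0.36), Rbfox3 (0.35), Sfswap (0.29) and the RNA helicase Ddx39b (0.25), all with separate groups and edgeR adjusted p-values of 0.0187 to 0.0486. Rbfox3 is also known as NeuN, the antigen used to mark mature neurons. The lower member was Clk1, a kinase that phosphorylates SR splicing factors. It was at 44.4, 44.9 and 47.6 CPM with ACS, 64.3, 62.3 and 65.2 CPM with DCS and 70.5, 68.2 and 64.5 CPM in controls (−0.49, SE 0.05, edgeR adjusted p = 0.00456). Pabpn1, the nuclear poly(A) binding protein, was higher by 0.37 (SE 0.05, edgeR adjusted p = 0.00872) and was the 1 call among 17 genes of nuclear export and poly(A) binding, whose median was 0.02. The share called higher over all tested entries was 0.51%. Leng8, Srrm2, Rbm24, Akap8l and Clk1 were called in all 9 fits that left out 1 library, whereas the adjusted p of Pabpn1 reached 0.0558, that of Snrnp70 0.0714 and those of the other members 0.11 to 0.163. The count of higher members was 4 without ACS replicate 1, ACS replicate 2 or DCS replicate 2, 5 without DCS replicate 3 and 6 without ACS replicate 3 or control replicate 2.

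**Figure D3:**
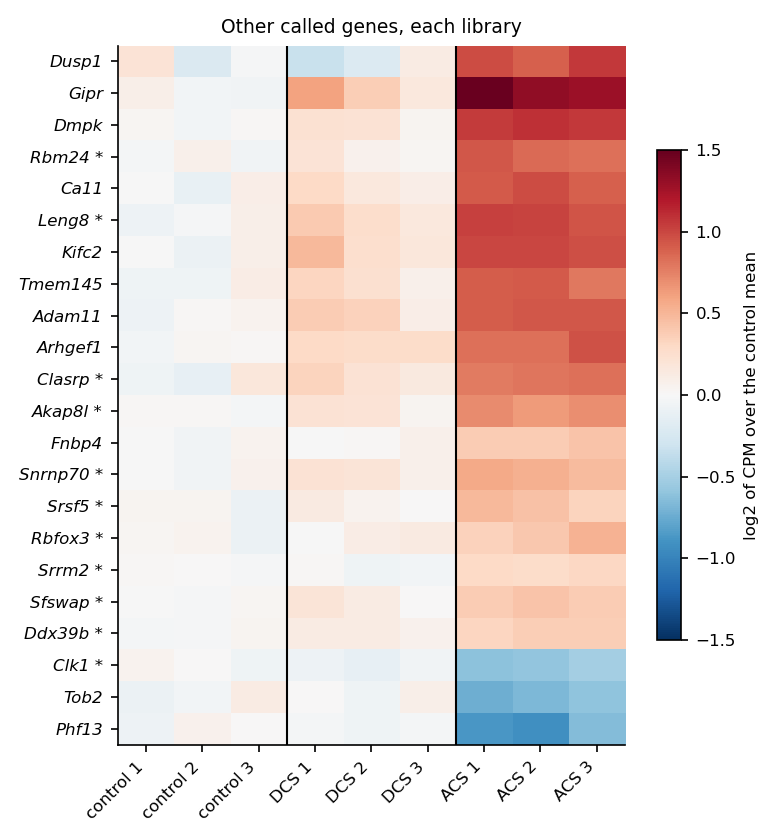
Log2 of the CPM over the control mean (color scale) in each of the 9 libraries (columns) for 22 called genes (rows). They are the 16 genes outside the immediate early list, with both groups above 0, that were called in every fit without 1 library, joined by the other called splicing and speckle genes; an asterisk marks the 11 splicing and speckle genes. The ACS columns have the strongest color in each row, and for many higher genes the DCS columns, replicate 1 most, lie above the controls.

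The other genes called whichever library was left out have diverse roles. Dmpk, the kinase affected in myotonic dystrophy, was at 25.6, 26.4 and 25.6 CPM with ACS, 14.4, 14.3 and 12.7 CPM with DCS and 12.5, 12 and 12.4 CPM in controls (log2 fold change 0.91, SE 0.08, edgeR adjusted p = 0.00115). Gipr, the receptor of a gut hormone that stimulates insulin secretion, was at 41.6, 37.5 and 36.4 CPM with ACS, 22.6, 19.3 and 16.7 CPM with DCS and 15.9, 14.5 and 14.3 CPM in controls (0.98, SE 0.11, edgeR adjusted p = 0.00551). Arhgef1, an activator of a small GTPase, was at 72.6, 72.4 and 79.2 CPM with ACS, 50.3, 49.3 and 49.3 CPM with DCS and 39.8, 41.5 and 41.2 CPM in controls (0.59, SE 0.05, edgeR adjusted p = 0.00124). In all 3 genes the ACS, DCS and control libraries formed 3 separate groups. Ca11, a carbonic anhydrase relative without catalytic activity, was higher by 0.74 (SE 0.08), the kinesin Kifc2 by 0.68 (SE 0.08), Tmem145 by 0.66 (SE 0.08), the catalytically inactive membrane protein Adam11 by 0.64 (SE 0.07) and the formin-binding protein Fnbp4 by 0.37 (SE 0.04), with edgeR adjusted p-values of 0.00453 to 0.00556. Among the less stable calls, Nrbp2 (0.80), the deacetylase Hdac10 (0.79), the adaptor subunit Ap1g2 (0.77), the sodium-proton exchanger Slc9a5 (0.72) and the collagen-modifying P3h3 (0.71) had adjusted p-values of up to 0.0773 to 0.182 when single libraries were left out.

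The called genes were also set beside the unstimulated controls. For the 70 higher entries that are neither early genes nor MAP kinase feedback genes, the median log2 level relative to the control mean was 0.51, 0.53 and 0.51 in the ACS libraries and 0.14, 0.10 and 0.05 in the DCS libraries, against −0.0023, −0.01 and 0.01 in controls. Over all 83 higher entries the median difference from control was 0.57 for ACS and 0.10 for DCS, and 62 of the 83 had a higher mean with DCS than in controls. These comparisons share libraries, so the values are given side by side and not as separate evidence. For the 18 lower entries with ACS counts above 0 the ACS libraries were at −0.41, −0.39 and −0.42 and the DCS libraries at 0.0018, −0.01 and −0.04. For single genes, Leng8 differed from control by 0.99 with ACS and 0.27 with DCS, Kifc2 by 0.99 and 0.31, and Carmil3 by 0.98 and 0.40. None of these DCS differences passed the test (edgeR adjusted p = 0.588 to 0.692). Over the 11 called early genes, the difference from control ran from 0.31 (Nfil3) to 2.63 (Nr4a1) with ACS and from −0.23 (Egr1) to 0.21 (Ier2) with DCS, and none of the latter passed the test.

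Genes of synapses, channels and axons gave at most 2 calls in each list. Over all tested entries, 0.51% were higher and 0.123% lower. At an unadjusted p under 0.05, 1175 of all 16284 entries were above 0 and 1085 below. Of 53 glutamate receptors and postsynaptic scaffolds, 2 were higher and none lower, with a median log2 fold change of 0.07. Shank1, a scaffold of excitatory synapses, was at 360, 371 and 345 CPM with ACS, 300, 271 and 241 CPM with DCS and 224, 242 and 233 CPM in controls (0.41, SE 0.07, edgeR adjusted p = 0.0431). Grik1, a kainate receptor subunit, was at 9.35, 9.25 and 9.96 CPM with ACS and 5.4, 5.52 and 6.06 CPM with DCS (0.75, SE 0.13, edgeR adjusted p = 0.0422). Camk2g, a subunit of a calcium-dependent kinase, had separate groups at 6.55 to 13.6 CPM with ACS and 28.3 to 31.3 CPM with DCS, but control replicate 3 also stood at 31.3 CPM against 12.3 and 13.3 CPM in the other controls, and its difference of −1.68 did not pass the test (SE 0.36, edgeR adjusted p = 0.0786). Of 48 presynaptic release genes, 1 was higher, Tspoap1, which binds the active zone protein RIM (0.47, SE 0.06, edgeR adjusted p = 0.0119). Without single libraries the adjusted p of Tspoap1 reached 0.0729, that of Grik1 0.162 and that of Shank1 0.163. The median of the presynaptic list was 0.10 and 40 of its 48 members were above 0, against 49.4% of all tested entries. Median exon lengths were 3460 bases for the presynaptic list and 4118.5 bases for the glutamate list, against 2353 bases for all tested entries. Over all entries in 4 bins of length, the median log2 fold change rose from −0.04 in the shortest to 0.02 in the longest. The part of transcript length in these list medians was not tested.

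Of 33 voltage-gated sodium and calcium channel genes, 1 was higher, Cacna1d, the pore of an L-type calcium channel. It was at 89.8, 85.9 and 90.7 CPM with ACS, 71.7, 68.3 and 59.5 CPM with DCS and 63.5, 68.4 and 66.3 CPM in controls (log2 fold change 0.42, SE 0.07, edgeR adjusted p = 0.0345). The list median was 0.12, 25 of 33 were above 0, and 13 had all ACS libraries above all DCS libraries against 1819 of all 16284 entries (11.2%). None of 44 potassium channel genes was called (3 above and 2 below at an unadjusted p under 0.05, at most 1 in each direction under any alternative tested), and the sodium-activated channel Kcnt1 gave 0.70 (SE 0.14, edgeR adjusted p = 0.0677). Among 45 axon growth and cytoskeleton genes, 1 was higher: Carmil3, a regulator of actin capping, at 113, 109 and 111 CPM with ACS, 82.2, 74.4 and 65.2 CPM with DCS and 57.7, 54.4 and 56.2 CPM in controls (0.59, SE 0.07, edgeR adjusted p = 0.00919). Gap43, a protein of growing axons, was at 1168, 1127 and 1079 CPM with ACS and 1116, 1111 and 946 CPM with DCS, so the groups overlapped (0.09, SE 0.06, edgeR adjusted p = 0.6). Without single libraries the adjusted p of Carmil3 reached 0.0542 and that of Cacna1d 0.126. Flna, an actin crosslinker, gave 0.28 (SE 0.05, edgeR adjusted p = 0.0525). Of 54 axon guidance genes none was called (11 above and 0 below at an unadjusted p under 0.05, at most 5 higher under any alternative), and Plxna3, a semaphorin receptor subunit, gave 0.35 (SE 0.08, edgeR adjusted p = 0.0825). Over all 16284 entries, 1175 were above and 1085 below at that unadjusted threshold. Median exon lengths were 4066 bases for the sodium and calcium channel list and 4726 bases for the guidance list. The part of transcript length in the values of these lists was not tested either.

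The core genes of PI3K, AKT and mTOR signaling included no call among 35 (1 above and 2 below at an unadjusted p under 0.05, at most 1 under any alternative), with a median of −0.01. Rps6kb2, an S6 kinase, had the largest difference of that list, 0.43 (edgeR adjusted p = 0.0816). Neurotrophic factors and receptors had none of 17 called (3 above and 0 below at an unadjusted p under 0.05), with a median of 0.11. Ntf3, a neurotrophin, was at 3.81, 5.06 and 2.33 CPM with ACS and 4.39, 4.27 and 4.44 CPM with DCS, so its groups overlapped (−0.23, SE 0.24, edgeR adjusted p = 0.743). Ager, the receptor for glycation end products, was at 4.48, 5.94 and 5.29 CPM with ACS and 4, 1.64 and 2.47 CPM with DCS, which did not overlap, with a log2 fold change of 0.95 (SE 0.34, edgeR adjusted p = 0.246). Of 45 regulators of small GTPases, 2 were higher, Arhgef1 and the kinase Mink1 (0.34, SE 0.05, edgeR adjusted p = 0.0317, up to 0.118 without single libraries). The share called higher over all tested entries was 0.51%.

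**Figure D4:**
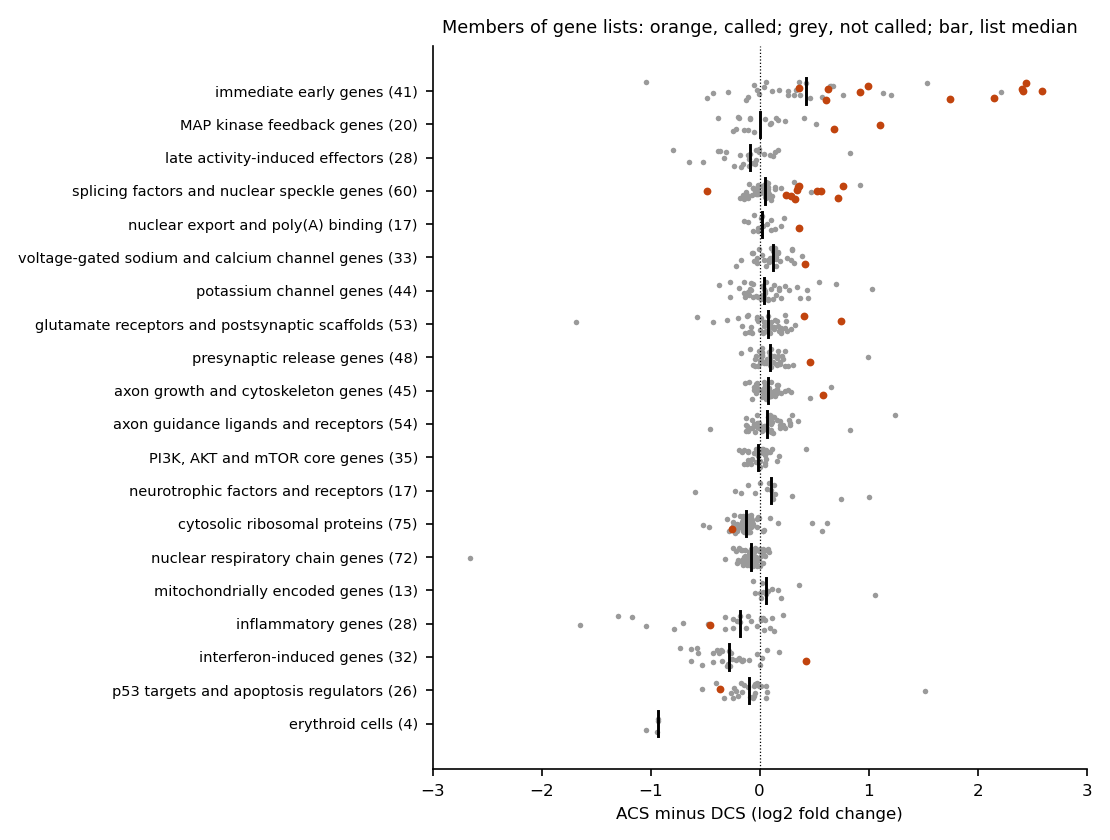
Log2 fold change of ACS over DCS (horizontal axis) for the tested members of 20 gene lists (rows, number tested in parentheses). Each point is 1 gene, orange where the edgeR adjusted p was under 0.05, and the black bar is the list median. The immediate early genes reach furthest to the right with a median of 0.42, the ribosomal proteins center on −0.12, and the 4 hemoglobin genes of the erythroid list lie near −0.94.

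Among the lower genes, Hes5, a repressor downstream of Notch in neural progenitors, was at 1.05, 0.819 and 1.21 CPM with ACS, 3.08, 2.75 and 2.72 CPM with DCS and 2.39, 3.31 and 3.27 CPM in controls. It was 2.77-fold lower with ACS than with DCS (log2 fold change −1.47, SE 0.22, edgeR adjusted p = 0.0208), without overlap, at a low level. Its adjusted p was up to 0.0948 when single libraries were left out. Hes5 was the 1 call among 22 Notch pathway genes and among 13 markers of progenitors and dividing cells. The share called lower over all tested entries was 0.123%. The summed level of the 13 progenitor markers was 1453 to 1603 CPM with ACS, 1577 to 1635 CPM with DCS and 1656 to 1763 CPM in controls. Of the 13, 10 were below 0, with a median of −0.05, and the part of this marker level in the Hes5 result was not tested. Txnip, an inhibitor of thioredoxin that follows glucose supply, was at 14.2, 10.6 and 11.1 CPM with ACS, 22.4, 28.1 and 19.6 CPM with DCS and 25.8, 24.7 and 20.1 CPM in controls (−0.97, SE 0.16, edgeR adjusted p = 0.0366, up to 0.149 without single libraries). Phf13, a reader of trimethylated histone H3, was at 14.3, 13.8 and 16.6 CPM with ACS, 25.6, 24.9 and 25.6 CPM with DCS and 24.8, 27.4 and 26.3 CPM in controls (−0.77, SE 0.08, edgeR adjusted p = 0.00499). Tob2, an antiproliferative protein that recruits mRNA deadenylases, was at 15.6, 16.3 and 17.1 CPM with ACS, 26.1, 24.9 and 27.5 CPM with DCS and 24.5, 25.2 and 28.3 CPM in controls (−0.68, SE 0.08, edgeR adjusted p = 0.00551). Phf13 and Tob2 kept their calls whichever library was left out.

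Creb1, which encodes the transcription factor CREB, was at 15.9, 19.1 and 16.6 CPM with ACS and 23.5, 23.4 and 24.2 CPM with DCS, with controls at 23.6, 21.4 and 21.4 CPM (log2 fold change −0.46, SE 0.09, edgeR adjusted p = 0.0491). It was the 1 call among 21 tested factors of the CREB, SRF and MEF2 families, and it lost the call in 7 of 9 fits that left out a library (adjusted p up to 0.182). Of all tested entries, 0.123% were called lower. The inflammatory cytokine Il1b was at 69.8, 69.9 and 62.9 CPM with ACS and 98.3, 98.6 and 80.3 CPM with DCS (−0.45, SE 0.08, edgeR adjusted p = 0.0449, up to 0.169 without single libraries). It was the 1 call among 28 inflammatory genes, whose median was −0.18. The microglial markers, of which 10 of 10 were tested, had no call and a median of −0.01, with summed levels of 210 to 216 CPM with ACS and 216 to 220 CPM with DCS. Also lower were Cdkn1a, a p53-induced inhibitor of the cell cycle (−0.36), Pdia4, a protein disulfide isomerase of the endoplasmic reticulum (−0.29), Psme1, a subunit of the proteasome activator (−0.37), Phospho2 (−0.36), the zinc finger genes Zfp84 and Zbtb11 (both −0.35) and the complement regulator Csmd1 (−0.32), with edgeR adjusted p-values of 0.0257 to 0.0467 that each lost the call without some library (up to 0.127 to 0.162). Zfp84 is listed as 2 entries, of which the other gave −0.12.

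The cytosolic ribosomal proteins lay lower with ACS as a list, mostly by small amounts. Of 75 tested, 67 were below 0, the median was −0.12 on the log2 scale, and 33 had all ACS libraries below all DCS libraries. Of all 16284 tested entries, 8237 were below 0 and 1658 (10.2%) had all ACS libraries below all DCS libraries. Called lower were 20 of all tested entries (0.123%). Only Rpl18, a protein of the large subunit, passed the adjusted test, at 163, 153 and 152 CPM with ACS, 188, 193 and 178 CPM with DCS and 189, 188 and 182 CPM in controls (−0.25, SE 0.05, edgeR adjusted p = 0.0449). Its call was absent in 7 of 9 fits without a library, in the fit of the 6 stimulated libraries alone and after removal of a length trend, and DESeq2 called 11 members. Relative to the control mean, the list median was −0.05, −0.03 and −0.10 in the ACS libraries and 0.08, 0.11 and 0.0084 in the DCS libraries, and the controls at 0.0051, −0.02 and −0.0032. The ACS libraries thus lay below all controls, whereas DCS replicate 3 lay close to control replicate 1. The 72 nuclear genes of the respiratory chain had no call (0 above and 9 below at an unadjusted p under 0.05, DESeq2 and other alternatives at most 2), with 60 below 0 and a median of −0.08. These mRNAs are short, with median exon lengths of 663 bases for the ribosomal proteins and 708 bases for the respiratory chain genes against 2353 bases for all tested entries, and over all entries the median log2 fold change was −0.04, −0.02, −0.00075 and 0.02 from the shortest entries to the longest in 4 bins of equal size. Transcript length moved with the difference between the groups, and its part in these list medians was not tested. None of the 13 mitochondrially encoded genes was called (1 above and 0 below at an unadjusted p under 0.05, at most 1 under any alternative), with a median of 0.06. An entry annotated as mitochondrial ribosomal RNA, a kind of RNA that selection of polyadenylated RNA takes up only in part, was at 675, 635 and 700 CPM with ACS, 471, 434 and 508 CPM with DCS and 597, 594 and 496 CPM in controls (0.51, SE 0.08, edgeR adjusted p = 0.0294, up to 0.124 without single libraries). The next most abundant mitochondrial entry of the same name, at positions 68 to 1025, was not called. Its mean was 288 CPM with ACS and 258 CPM with DCS (0.16, SE 0.07, edgeR adjusted p = 0.379).

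Stress and metabolic lists held single calls. Of all 16284 tested entries, 0.51% were called higher and 0.123% lower, and 8237 were below 0. Txnip was the 1 call among 32 heat shock and oxidative stress genes (median −0.06), Pdia4 the 1 among 28 genes of the unfolded protein and integrated stress responses (median −0.01) and Cdkn1a the 1 among 26 p53 targets and apoptosis regulators (median −0.10, 21 of 26 below 0). Pfkp, a phosphofructokinase of glycolysis, was at 68.8, 74.3 and 66.1 CPM with ACS and 49.9, 56.7 and 48.1 CPM with DCS (log2 fold change 0.44, SE 0.07, edgeR adjusted p = 0.0402) and was the 1 call among 26 glycolysis and hypoxia genes, whose median was −0.08. Ldha, lactate dehydrogenase, gave −0.19 (SE 0.04, edgeR adjusted p = 0.0677), so Pfkp and Ldha differed in sign. Irf3, a transcription factor of antiviral signaling that is itself not induced by interferon, was at 36.9, 40.5 and 38 CPM with ACS and 31.6, 26.5 and 28.1 CPM with DCS (0.42, SE 0.07, edgeR adjusted p = 0.0426). It was the 1 call among 32 interferon-induced genes as listed, of which 27 were below 0 with a median of −0.28. Without single libraries the adjusted p of Pfkp reached 0.152 and that of Irf3 0.162. The summed level of the interferon list ran from 458 to 551 CPM with ACS, 398 to 767 CPM with DCS and 578 to 808 CPM in controls. Of 60 histone modifiers, readers and remodelers, 2 were higher (Hdac10 and the methyl-binding domain protein Mbd6, 0.54, adjusted p up to 0.127 without single libraries) and 1 lower (Phf13), with a median of 0.0066. Cholesterol and fatty acid synthesis (28 genes) and the circadian and glucocorticoid-induced genes (24) had no call (0 and 6 above, 2 and 0 below at an unadjusted p under 0.05), and their medians were −0.06 and 0.05.

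Markers of other cell types were compared as a check of composition. Hemoglobin genes, which mark red blood cells, were the list with the lowest median, −0.94 over the 4 tested of 8 listed. Hbb was at 3.69, 6.28 and 6.62 CPM with ACS, 11.6, 10.7 and 9.43 CPM with DCS and 8.23, 7.69 and 7.71 CPM in controls, and Hba-a2 at 8.3, 19 and 20.2 CPM, 32.1, 30.1 and 28.6 CPM and 17.4, 20.5 and 21.3 CPM. All 4 had all ACS libraries below all DCS libraries, as did 1658 of all 16284 tested entries (10.2%). None passed the adjusted test (edgeR adjusted p = 0.0784 to 0.16), and at most 2 were called under any alternative. All 4 had an unadjusted p under 0.05, against 2260 of all tested entries (13.9%). Reads of these genes may be split between near-identical copies. Summed over the list, the level was 20.6 to 47.2 CPM with ACS, 67.5 to 78.8 CPM with DCS and 48.1 to 52.8 CPM in controls. Astrocyte markers had no call among 10 tested (4 above and 1 below at an unadjusted p under 0.05, at most 3 higher under any alternative), and Gfap, the intermediate filament of astrocytes, was at 241, 219 and 245 CPM with ACS and 200, 195 and 201 CPM with DCS (0.24, SE 0.05, edgeR adjusted p = 0.073). Excitatory neurons, GABAergic interneurons, the oligodendrocyte lineage, endothelial cells, meningeal fibroblasts and ependymal cells had no call either, with medians of 0.07, 0.04, 0.0096, −0.22, −0.51 and −0.18 over 14, 14, 10, 5, 6 and 6 tested markers (at an unadjusted p under 0.05, 3 and 2 were above in the neuronal lists and 0 in the others, and any alternative called at most 1). Photoreceptor genes, which cortex hardly expresses, had 0 of 14 called (2 above and 0 below at an unadjusted p under 0.05) and a median of 0.43. Against controls their median was −0.92 with ACS and −1.32 with DCS. The summed photoreceptor level was 17.7 to 24.6 CPM with ACS, 9.47 to 17.9 CPM with DCS and 14.3 to 46.6 CPM in controls. Gnb3 gave 0.66 (edgeR adjusted p = 0.355) and Gngt1 0.72 (0.821), and the groups of both overlapped.

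The lowest values of the whole comparison were entries for cortactin and a neighbor. Cortactin (Cttn), an actin-binding protein of growth cones and dendritic spines, is listed as 2 entries on chromosome 1 of the table, whose genome build is not named. The first, ENSRNOG00000050994 (215255381 to 215290845, minus strand), had 0 counts in all 3 ACS libraries but 3179, 5340 and 5707 counts with DCS and 4487, 5520 and 5439 in controls. Set to a floor of 3 fragments per library, the ACS level was at least 331-fold lower than the DCS level (edgeR adjusted p = 3.89e-06). An entry annotated as liprin-alpha-1-like beside it (ENSRNOG00000048049, 215298161 to 215310013, minus strand) was also 0 in all ACS libraries, at 5.25, 5.19 and 5.62 CPM with DCS and 5.24, 5.77 and 2.87 CPM in controls, at least 22.6-fold lower with ACS (edgeR adjusted p = 0.00034). Both calls held whichever library was left out.

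The second Cttn entry, ENSRNOG00000047280 (217602698 to 217638152, minus strand), was at 95.1, 103 and 102 CPM with ACS, 93.5, 89.9 and 78.4 CPM with DCS and 88.3, 83.4 and 79.9 CPM in controls (log2 fold change 0.20, SE 0.07, edgeR adjusted p = 0.245). Ppfia1, which encodes liprin-alpha-1 and lies next to the second entry, gave 0.12 (SE 0.06, edgeR adjusted p = 0.406). Summed over both Cttn entries, the level was 95.1 to 103 CPM with ACS, 154 to 182 CPM with DCS and 164 to 172 CPM in controls, so the sum was lower with ACS while the second entry was not. Shank2, a postsynaptic scaffold close to the second Cttn entry, stood at 39.2, 109 and 39.2 CPM with ACS, 94.1, 94.1 and 89.9 CPM with DCS and 95.3, 93.3 and 39.5 CPM in controls, which divides the libraries across the groups. Entries of the same gene name can share reads, so the level of each copy is uncertain, and no cause of the zeros was tested. Entries at 0 in a whole group were few: 7 were 0 in all ACS libraries alone, 2 of them with a median of at least 5 CPM elsewhere, against 5 and 0 for DCS and 1 and 0 for controls. Entries at 0 in a single library with at least 5 CPM as the median of the others numbered 3 to 6 per library. A long noncoding clone was 0 in all DCS libraries at 0.798 to 1.2 CPM with ACS, at least 4.67-fold higher with ACS (edgeR adjusted p = 0.00551).

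**Figure D5:**
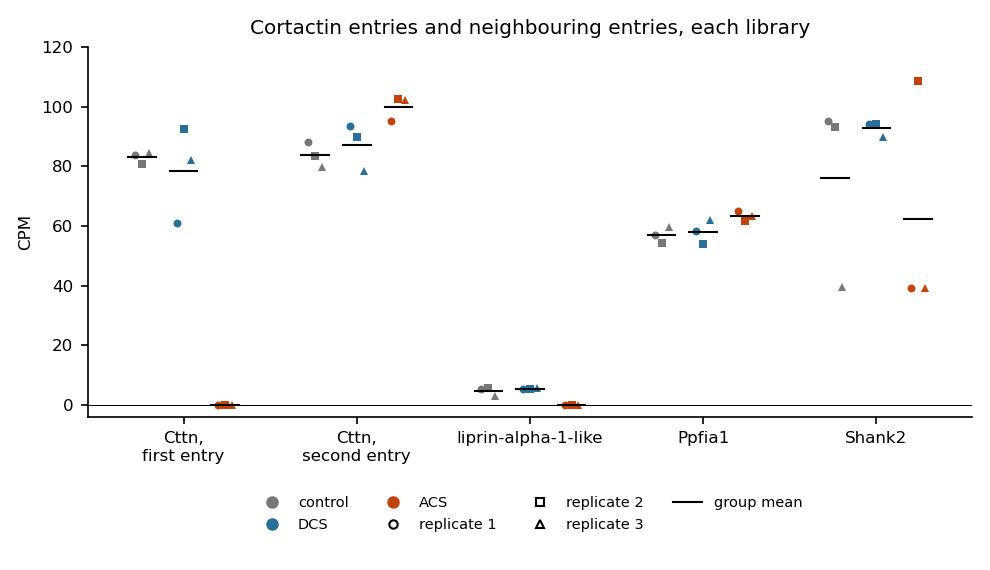
Level in CPM (vertical axis) of the 2 cortactin (Cttn) entries, the liprin-alpha-1-like entry beside the first, Ppfia1 and Shank2 beside the second, in each of the 9 libraries. Colors mark the groups, symbol shapes the replicate number and black lines the group means. The first Cttn entry and the liprin-alpha-1-like entry are at 0 in all ACS libraries, and Shank2 is at 39.2 to 39.5 CPM in ACS replicates 1 and 3 and control replicate 3.

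The study's methods state other thresholds, namely a fold change above 2 up or down with an unadjusted p under 0.05, by which 168 entries differed between ACS and DCS (1.03%), 91 higher and 77 lower. Of these, 11 also passed the adjusted test, and 100 had a mean count under 50. The set was made mostly of entries at low levels, whereas the called set had a median level of 52.8 CPM for the higher and 43.9 CPM for the lower entries against 18 CPM for all tested.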

How the data were processed

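Polyadenylated RNA of 9 libraries (3 control, 3 DCS, 3 ACS) was used, grouped by the titles in the labels. The authors trimmed reads (fastp in the methods, cutadapt 1.9 in the submitters' processing notes), aligned them with HISAT2 2.0.4 and quantified each library with StringTie 1.3.4d. The methods name GRCh38 for rat, and the table names no build. The estimated count of each gene and library was deposited by the authors as a whole number, beside an FPKM value that the authors computed from the same fragments. Low counts pile up at multiples of 4.

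Counts were scaled by TMM and filtered with filterByExpr (minimum count 10, minimum total 15), which left 16284 of 32623 entries. The quasi-likelihood F test of edgeR 4.0.16 (R 4.3.3) was fitted over all 9 libraries with 6 residual degrees of freedom, with Benjamini-Hochberg adjustment over all tested entries. A group at 0 was set to 3 fragments (12 counts) per library for a bound. DESeq2 1.42.0 and limma 3.58.1 on log2(FPKM + 1) or log2(FPKM + 0.1) were alternatives, as were other filters, scalings, sample sets, counts divided by 4, a length trend and a replicate block. On data simulated for ACS against DCS over 16284 genes, the test called 37.3% of changes of 0.5, 56.7% of 1 and 84.8% of 2 on the log2 scale, with 1 false call among 120. The libraries hold 12259853 to 17172690 fragments, and floors cover counting error only.

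The genes to describe and all gene and marker lists were chosen with earlier results of these data known. Lists are described by counts and medians, with no list test. Where a symbol has several entries, a list takes the one with the highest count. Genes named with values are the 12 largest positive and negative changes among called genes with a symbol and separate groups, the 10 smallest p-values, called list members or up to 3 others of a list, and the genes the study measured by RT-qPCR or named as hubs, of which some are not reported here; Cttn and its neighbors, Camk2g and Shank2 were described after their values were seen. Entries with only a clone or locus name were counted, apart from the entries at 0 in a group. Promoters are from RefSeq (GRCr8). Figures were drawn with matplotlib 3.10.9.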

Additional observations from a re-analysis of the deposited data

How the results depend on the processing

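Leaving out 1 library in turn gave 27 to 184 called entries, 21 to 137 higher and 6 to 47 lower. DESeq2 called 650 (412 higher, 238 lower), among them 102 of the 103, limma on log2(FPKM + 1) called 64 (46 higher) and on log2(FPKM + 0.1) 65 (44 higher), and the 6 stimulated libraries alone gave 11 lower. At an unadjusted p under 0.05 with a fold change over 2, no filter gave 312 entries, a mean FPKM of at least 1 gave 83, limma on log2(FPKM + 1) gave 51 and counts divided by 4 gave 97. The cause of these differences was not tested. Fits with fewer libraries have fewer degrees of freedom and another filter tests another number of entries, and the part of either was not tested. Median-of-ratios scaling (106 called), no filter (88), a mean FPKM of at least 1 (125), counts divided by 4 (122) and a removed length trend (96) stayed within 1.5 times of 103. Over single genes, 1416 of 2144 values under alternatives counted as the same. These were called in both fits in the same direction, or called in neither and within 1 SE, whatever their sign. Another 715 lost the call, 5 gained one, and 8 without a call moved by more than 1 SE. None reversed its sign where either fit made a call.

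Correlations this small cannot tell whether the replicate numbers pair the libraries. Those of same-numbered ACS and DCS libraries were 0.02, 0.04 and 0.06, and those of different numbers ran from −0.06 to 0.02. Among the DCS libraries, each ACS library correlated best with its own number. Among the controls, ACS replicate 2 did so, but ACS replicates 1 and 3 did not. ACS replicate 1 gave 0.02 with control replicate 1 and 0.04 with control replicate 3. ACS replicate 3 gave −0.05 with control replicate 3 and 0.03 with control replicate 2. With the replicate block 59 entries were called, 48 higher and 11 lower, and 53 were shared with the fit without it. It called 6 splicing genes higher. Changes of 0.5 on the log2 scale were often missed at this depth and number of libraries.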
